A study of Mus musculus with 24 samples.

Results

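The interleukin-6 cytokine family and its signalling chain were described in mouse liver endothelial cells as 9 protein-coding genes, found by symbol in the count table among 56748 genes, of which 21970 were protein-coding. The members are the cytokines Il6, Lif and Il11, the receptor chains Il6ra, Il6st, Osmr and Lifr, the transcription factor Stat3 and the feedback inhibitor Socs3. The rule took the genes by name and used no measured value. However, the members and the gene lists used below were chosen with earlier results of these data known.

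The libraries came from endothelial cells of the liver selected by Cd31 and from sinusoidal endothelial cells selected by Cd146, isolated from C57BL/6 mice that the methods describe as 3 months old and female. Each population was transduced with lentivirus and harvested 1 week later. The P16 shRNA construct, a hairpin against P16Ink4a, was compared with a non-coding hairpin (nc shRNA) in the same pLKO.1 vector, and the P16 construct, a P16-GFP fusion, with the empty pLenti-C-mGFP-P2A-Puro vector. All 24 libraries, 3 in each of the 8 groups, thus came from cultured and transduced cells. The labels do not say whether a replicate was a separate animal or culture, so p-values measure the spread between these libraries, which may be technical. Because these are bulk RNA samples, fewer cells of a type and less RNA per cell cannot be told apart.

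Interleukin-6 is an inflammatory cytokine that binds its receptor Il6ra and then gp130, the product of Il6st, the signal-transducing chain that the whole family shares. Leukaemia inhibitory factor pairs gp130 with Lifr, oncostatin M with Osmr or Lifr, and interleukin-11 with its own receptor chain. The receptors activate Janus kinases, which phosphorylate STAT3, and STAT3 switches on Socs3, which in turn blocks the receptor. Soluble Il6ra, released by proteases of the ADAM family, lets interleukin-6 act on cells with little receptor of their own. In the liver the pathway is known for the acute-phase response and for regeneration. Il6 itself is a classic target of NF-kB and C/EBP factors.

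The RefSeq promoter windows of Il6, Lif and Socs3 are shown because these are the inducible members on which the following comparisons turn. Each window runs from 250 bases before to 50 bases after the start of the gene on GRCm38.p6. All 9 members were matched to 11 windows. Il6 lies at chr5:30012864-30013163 on the plus strand, Lif at chr11:4257318-4257617 on the plus strand and Socs3 at chr11:117969317-117969616 on the minus strand. Capitals mark matches to the searched motifs on either strand.
Il6: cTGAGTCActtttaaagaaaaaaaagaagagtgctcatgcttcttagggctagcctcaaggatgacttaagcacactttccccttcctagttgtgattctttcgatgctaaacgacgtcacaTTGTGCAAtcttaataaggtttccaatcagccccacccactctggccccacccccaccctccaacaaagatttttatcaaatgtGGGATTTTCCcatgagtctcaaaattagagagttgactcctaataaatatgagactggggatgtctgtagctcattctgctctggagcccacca
Lif: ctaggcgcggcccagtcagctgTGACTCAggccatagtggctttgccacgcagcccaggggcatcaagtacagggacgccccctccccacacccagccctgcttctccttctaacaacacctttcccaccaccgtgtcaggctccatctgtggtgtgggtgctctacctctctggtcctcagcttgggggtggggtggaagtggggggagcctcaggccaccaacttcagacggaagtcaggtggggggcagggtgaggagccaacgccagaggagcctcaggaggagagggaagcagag
Socs3: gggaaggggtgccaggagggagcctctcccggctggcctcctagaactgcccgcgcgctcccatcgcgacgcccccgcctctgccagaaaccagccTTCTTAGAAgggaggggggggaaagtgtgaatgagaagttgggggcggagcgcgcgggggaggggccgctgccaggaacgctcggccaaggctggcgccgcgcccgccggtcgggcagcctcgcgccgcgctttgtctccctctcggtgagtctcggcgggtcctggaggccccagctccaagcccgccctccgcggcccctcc
In Il6 the capitals are, in this order, an AP-1 match at the start of the window, a C/EBP variant from -128 to -121 and an NF-kB match from -44 to -35, counted from the start of the gene. The NF-kB motif (GGGA, any base, then TTTCC) stood in 0.411% of all 32851 windows and in no other member. The AP-1 letters TGANTCA stood in 7.81% of windows and in 4 members, Il6, Lif, Il11 and Osmr. The STAT letters TTCNNNGAA stood in 8.3% of windows and in 1 member, Socs3. The interferon-stimulated response element (GAAA, any 2 bases, then GAAA, in 3.44% of windows) and the C/EBP letters TTGCNNNAA (9.56%) matched no member. The C/EBP variant TTGNGCAA (2.94% of windows) was written only after the Il6 window had been read, so its match there was chosen with the sequence in view. These matches are descriptions of the letters and show no binding.

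Cdkn2a, the gene of P16Ink4a, stood in the direction of the labels in all 4 construct comparisons. In Cd31+ cells Cdkn2a was at 57.3, 36.7 and 75.7 CPM (read counts scaled to library size by the TMM method) with nc shRNA and at 9.19, 5.07 and 5.63 CPM with P16 shRNA. In Cd146+ cells it was at 193.9, 126.3 and 95.1 CPM with nc shRNA and at 7.70, 11.4 and 25.3 CPM with P16 shRNA. Every P16 library lay above every empty vector library of its population. The adjusted p in edgeR was 0.0218 for Cd31+ silencing (log2 fold change -3.08) and 0.361 for Cd146+ silencing (-3.21), and 0.947 and 0.986 for overexpression (2.02 and 2.44). Cdkn2a is read as a whole gene here, so its other product p19Arf is counted with it.

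Library totals over all genes ranged from 15409767 to 26470392 reads. Cell type markers did not follow the endothelial label alone. The 12 mesenchymal markers summed to 6596 to 50990 CPM over the libraries, with Col1a1, a fibrillar collagen gene, at 454.2 to 19340 CPM, whereas the 16 endothelial markers summed to 383.6 to 2849 CPM. Such sums follow the most abundant genes of a list and are not shares of cells. Of the other mesenchymal markers, Col1a2, Col3a1 and Acta2 had medians of 6692, 4024 and 2955 CPM. Dcn, Pdgfrb, Pdgfra and Thy1 had medians of 393.6, 312.2, 70.6 and 33.9 CPM. The rest were lower, with medians of 2.17 CPM for Des, 9.56 for Lum and 12.8 for Tagln, and Lrat was at 0 in 20 libraries. Pecam1, which encodes Cd31, ranged from 4.00 to 282.9 CPM, and the sinusoidal marker Clec4g was at 0 in 18 libraries. The endothelial markers Eng, Emcn and Mcam had the highest medians of their list, 299.9, 170.2 and 149.1 CPM. Their lowest levels were 62.3, 2.50 and 3.18 CPM. Pecam1, Cdh5 and Flt1 had medians of 145.3, 109.5 and 108.9 CPM. Kdr, Tek, Lyve1 and Stab2 had medians of only 7.72, 4.76, 1.23 and 0.394 CPM. The others, Clec4g aside, had medians from 15.8 CPM (Vwf) to 29.0 CPM (Egfl7). Macrophage markers summed to 20.2 to 424.5 CPM, with the Kupffer cell genes Clec4f and Marco at 0 in 19 and 21 libraries. All other macrophage markers had reads in every library. Lyz2 had a median of 48.9 CPM and a highest level of 211.6 CPM. For Csf1r, C1qa and Adgre1 the medians were 7.54, 5.86 and 2.06 CPM and the highest levels 28.4, 45.2 and 15.8 CPM. The 8 hepatocyte and 9 lymphoid markers summed to at most 2.81 and 0.785 CPM, and the 6 cholangiocyte markers to 37.95 to 979.0 CPM. Spp1 carried most of the cholangiocyte sum, with a median of 123 CPM and a highest level of 962.7 CPM. Krt19 had a median of 12.2 CPM, and Epcam and Cldn4 were at 0 in 15 and 17 libraries. Although the mice are described as female, 4 Y-linked genes summed to 125.0 to 256.2 CPM in 16 libraries (numbers 1, 2 and 3) and to at most 0.215 CPM in the other 8 (numbers 4, 5 and 6). The part of these differences in the results was not tested unless a value is given.

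Per length, Il6st was the most abundant member in every library. Deposited FPKM (fragments per kilobase of gene, scaled to library size) had a median of 61.9 for Il6st over the 24 libraries, 28.1 for Stat3, 17.2 for Osmr, 13.9 for Socs3 and 10.8 for Lif. Il6 followed with 7.002 FPKM, Lifr with 3.70, Il6ra with 1.43 and Il11 with 0.213. The shared chain gp130 was thus present at far higher transcript levels than Il6ra, the chain that binds interleukin-6. Il11, a cytokine known from fibrotic tissue, had only 3 to 50 reads per library, and its differences could not be resolved at this depth.

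**Figure D1:**
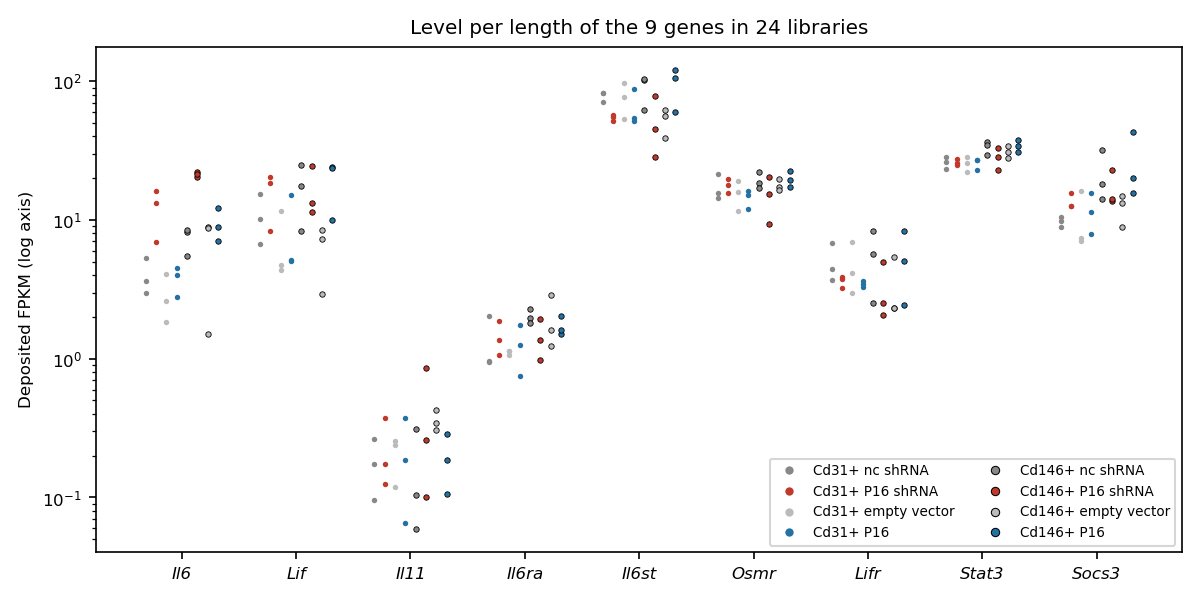
Deposited FPKM of the 9 genes (log axis), 1 point per library, 3 libraries for each of the 8 groups, with Cd146+ groups outlined in black. Il6st lies highest, with a median of 61.9 FPKM, and Il11 lowest, with 0.213, and the libraries of Il6 spread more widely than those of Stat3.

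Stat3 varied least, from 215.3 to 360.8 CPM, a 1.68-fold range. Il6 ranged from 3.66 to 54.1 CPM, a 14.8-fold range, and Lif from 12.7 to 108.0 CPM, an 8.54-fold range. When the 8 groups were ordered by mean Il6 level, Cd146+ P16 shRNA stood first with 51.8 ± 2.06 CPM (SD, n = 3) and did not overlap with the next group, Cd31+ P16 shRNA with 29.9 ± 11.8 CPM. All 6 later neighbours in that order overlapped. For the other 8 members all 7 neighbouring pairs of groups overlapped.

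Several members followed the replicate number as much as the construct. In Cd146+ cells Lifr was at 27.2, 27.4, 25.0 and 25.8 CPM in the 4 libraries of number 5, one for each construct, whereas the libraries of number 1 stood at 89.7 CPM with nc shRNA and 90.3 CPM with P16. The libraries of number 3 lay between them, at 62.7, 54.9 and 55.9 CPM. Lif and Il6st were likewise lower in number 5, where Lif had 36.0 to 58.7 CPM against 106.3 and 108.0 CPM in number 1. The labels do not say what a number stands for.

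P16Ink4a silencing in Cd31+ cells was the comparison in which Il6, Socs3 and Il6st stood apart from their controls. Il6 was at 12.9, 7.45 and 8.95 CPM with nc shRNA and at 40.1, 17.0 and 32.6 CPM with P16 shRNA, so that all 3 silenced libraries lay above all 3 controls. Its log2 fold change was 1.63 (SE 0.36), with an unadjusted p of 0.0032 and an adjusted p of 0.0874 in edgeR's quasi-likelihood test. Replicate numbers paired the libraries within a population. With the replicate number as a block over the 2 groups the log2 fold change of Il6 was 1.58 (SE 0.15) and the adjusted p 0.000353, and Il6 rose in that fit. In the next 2 paragraphs the block is this one over the 2 groups, unless 12 libraries are named. The ratio of silenced to control library was 3.11, 2.28 and 3.64 for numbers 1, 2 and 3.

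Socs3, the inhibitor that STAT3 induces, was at 30.3, 26.6 and 28.8 CPM with nc shRNA and at 45.8, 36.6 and 36.9 CPM with P16 shRNA. The groups did not overlap, and the log2 fold change was 0.49 (SE 0.13), with an adjusted p of 0.106 in edgeR and 0.0115 with the block over the 2 groups. With the block over the 12 libraries of the population the adjusted p of Socs3 was 0.0712. Il6st, the gp130 gene, lay the other way. It was at 911.1, 808.4 and 932.2 CPM with nc shRNA and at 588.0, 633.9 and 622.6 CPM with P16 shRNA, again without overlap. The log2 fold change of Il6st was -0.51 (SE 0.11), with an adjusted p of 0.0779 in edgeR and 0.00914 with the block.

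Lif was higher in each numbered pair, with ratios of 1.85, 1.21 and 1.32, although its groups overlapped at 44.4, 30.1 and 68.2 CPM with nc shRNA and 81.9, 36.4 and 90.0 CPM with P16 shRNA. For Lif the log2 fold change was 0.56 (SE 0.43, adjusted p = 0.522 in edgeR) without the block and 0.53 (SE 0.12, adjusted p = 0.0186) with it. Lifr, the receptor chain for leukaemia inhibitory factor, had a log2 fold change of -0.44 (adjusted p = 0.331 in edgeR), and with the block -0.40 (adjusted p = 0.0635). For Il6ra, Osmr and Stat3 the log2 fold changes were 0.13, 0.06 and 0.02, within the spread of the libraries. Il11 had too few reads to be tested.

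Of the 8 members tested, 3 had an unadjusted p under 0.05, beside 19.8% of all 14358 genes tested, and 3 had groups that did not overlap, beside 27.2% of all genes. None of the 8 had an adjusted p under 0.05 in edgeR without the block, beside 1.3% of all genes, and 3 did in DESeq2's Wald test (Il6, Il6st and Socs3), beside 7.63%. With the block over the 2 groups, 4 of 8 passed the adjusted threshold, beside 18.8% of all genes, and 5 of 8 the unadjusted one, beside 33.9%. With the block over the 12 libraries of the population 3 of 9 passed the adjusted threshold (Il6, Lif and Il6st), beside 16.8%, and 5 of 9 the unadjusted one, beside 31.1%. Without a block, the fit over those 12 libraries left 1 member with an unadjusted p under 0.05, beside 17.4%. The median log2 fold change was 0.10 over the members and 0.00 over all genes. Interferon response markers moved with the same contrast: the 12 genes of that list summed to 49.8 to 121.1 CPM with nc shRNA and to 237.5 to 1341 CPM with P16 shRNA, and their part in the Il6 difference was not tested. Other marker lists moved with the contrast within the numbered pairs. For numbers 1, 2 and 3 the mesenchymal sum was 37350, 20500 and 29740 CPM with nc shRNA and 50990, 23890 and 34480 CPM with P16 shRNA, higher in each pair. The endothelial sum was lower in each pair, at 658.4, 704.3 and 1314 CPM against 383.6, 607.7 and 805.9 CPM. So was the macrophage sum, at 150.2, 73.2 and 45.7 CPM against 124.3, 54.2 and 37.8 CPM. The cholangiocyte sum, in which Spp1 was the most abundant gene, was higher in each pair, at 791.8, 100.5 and 103.0 CPM against 979.0, 229.3 and 188.4 CPM. The part of these lists in the results was not tested.

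In Cd146+ cells, P16Ink4a silencing also went with a higher Il6 level. Il6 was at 19.9, 13.7 and 20.6 CPM with nc shRNA and at 50.2, 54.1 and 50.9 CPM with P16 shRNA, with no overlap. It differed by 1.52 on the log2 scale (SE 0.20), with an unadjusted p of 0.000174 and an adjusted p of 0.308 in edgeR's test, in which no gene of the table passed the adjusted threshold. In the block fit over the 12 libraries of the population the log2 fold change of Il6 was 1.58 (SE 0.16) and the adjusted p 0.00259, whereas the block over the 2 groups, which share only numbers 3 and 5, gave 1.63 with an adjusted p of 0.0994. The ratios for numbers 3 and 5 were 3.65 and 2.63. Among libraries with Y-linked transcripts the log2 difference was 1.57 (1 against 2 libraries) and among those without 1.33 (2 against 1).

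Lif in Cd146+ cells depended on the pairing. It was at 108.0, 78.0 and 36.0 CPM with nc shRNA and at 108.0, 58.7 and 48.3 CPM with P16 shRNA. Its log2 fold change was -0.04 (SE 0.47, adjusted p = 0.976 in edgeR) without the block, and 0.52 (SE 0.13, adjusted p = 0.0402) with the block over 12 libraries. In the shared numbers 3 and 5 the Lif ratios were 1.38 and 1.63. The control group held number 1, which had the highest Lif level of the controls, and the silenced group held number 6 in its place.

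Il6st was at 1135, 1172 and 683.2 CPM with nc shRNA and at 880.2, 510.0 and 307.0 CPM with P16 shRNA. The groups overlapped, and the log2 fold change of -0.81 (SE 0.41) had an adjusted p of 0.475 in edgeR and, with the block over 12 libraries, -0.38 with an adjusted p of 0.0524. For Socs3 the log2 fold change was -0.35 without and 0.19 with the block, and neither passed a threshold. Of the 9 members, 1 had an unadjusted p under 0.05, beside 11.6% of all 15124 genes, and 1 had groups that did not overlap, beside 20.7% of all genes. None passed the adjusted threshold in edgeR, as no gene of the table did (0% of genes), and 1, Il6, did in DESeq2's Wald test, beside 2.2% (2 members at an unadjusted p under 0.05, beside 13.8%). With the block over 12 libraries 2 of 9 passed it, Il6 and Lif, beside 8.33% of all genes, and 3 of 9 had an unadjusted p under 0.05, beside 27.4%. With the block over the 2 groups none of 9 passed the adjusted threshold, as no gene did, and 3 of 9 had an unadjusted p under 0.05, beside 16.5%. Interferon response markers summed to 77.7 to 93.4 CPM with nc shRNA and to 387.0 to 3023 CPM with P16 shRNA, highest in number 3. In the shared numbers 3 and 5 the mesenchymal sum was 27720 and 27110 CPM with nc shRNA and 31570 and 31370 CPM with P16 shRNA. The cholangiocyte sum, with Spp1 as its most abundant gene, was 54.7 and 219.5 CPM against 164.0 and 300.4 CPM. The endothelial sum was lower in both pairs, at 538.3 and 2189 CPM against 468.5 and 1953 CPM. So was the macrophage sum, at 27.8 and 344.4 CPM against 20.2 and 316.2 CPM. The part of these lists in the results was not tested. Without number 3 of the Cd146+ cells, in which endothelial markers were lowest, the log2 fold change of Il6 was 1.37 (unadjusted p = 0.000803 in edgeR), and 3 of 9 members then had an unadjusted p under 0.05, beside 9.05% of genes.

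**Figure D2:**
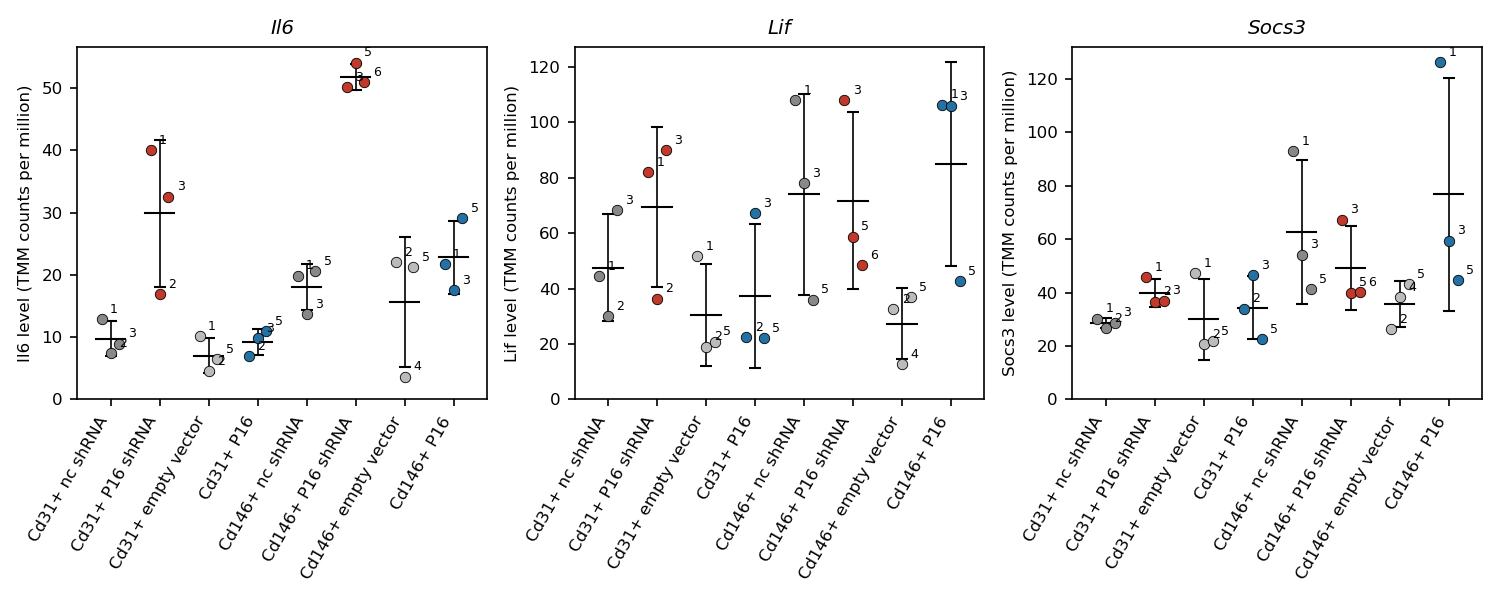
Level of Il6, Lif and Socs3 in each library (points, labelled with the replicate number) in TMM CPM, with the mean and SD of 3 libraries per group. The P16 shRNA libraries of Il6 lie above the nc shRNA libraries of the same population, at 17.0 to 40.1 CPM in Cd31+ cells and 50.2 to 54.1 CPM in Cd146+ cells.

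The effect of silencing on Il6 was compared between the populations in a fit over all 24 libraries. The difference, Cd146+ minus Cd31+, was -0.10 on the log2 scale, with a 95% interval from -1.45 to 1.26, an unadjusted p of 0.883 and an adjusted p of 1 in edgeR. None of the 9 members had an unadjusted p under 0.05 in this comparison, beside 1.2% of 16524 genes, and no gene passed the adjusted threshold (0%). Without number 3 of the Cd146+ cells 1 member had an unadjusted p under 0.05, beside 2.23%. That interval holds effects that differ by more than 2-fold. With the replicate number within each population as a block the difference was 0.0093, with a 95% interval from -0.48 to 0.50 (adjusted p = 0.998 in edgeR).

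**Figure D3:**
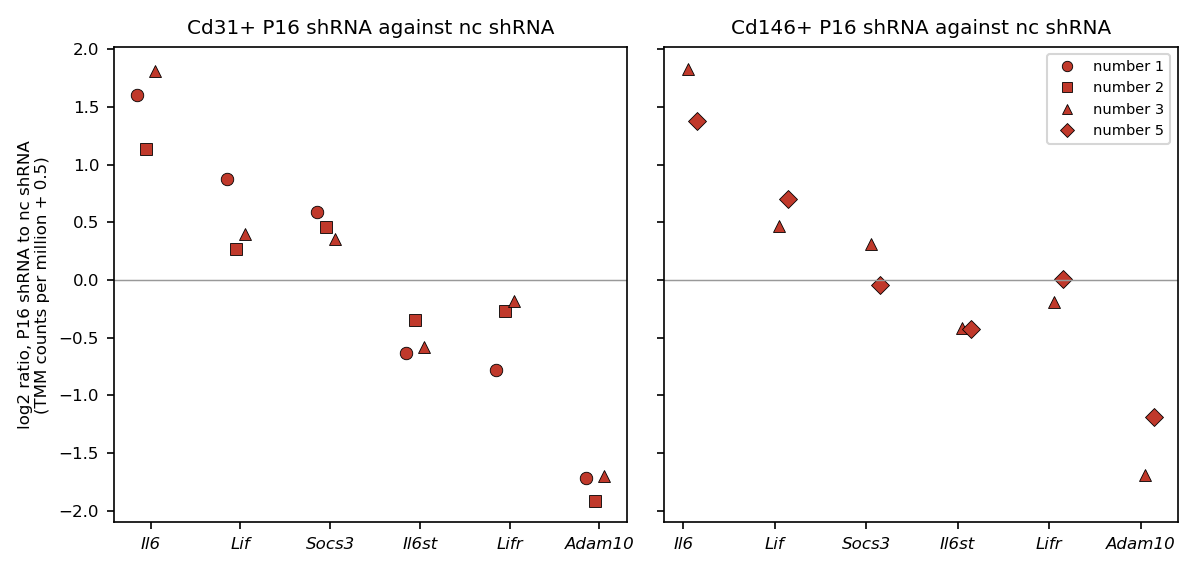
Log2 ratio of P16 shRNA to nc shRNA in libraries that share a replicate number, from TMM CPM plus 0.5, in Cd31+ cells (numbers 1, 2 and 3) and Cd146+ cells (numbers 3 and 5). Il6 and Lif lie above 0 and Il6st and Adam10 below 0 in every pair, whereas Socs3 and Lifr lie on both sides in Cd146+ cells.

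P16 overexpression in Cd31+ cells gave no member with an unadjusted p under 0.05, beside 3.73% of 14565 genes, and no member without overlap of the groups, beside 10.8%. Il6 was at 10.2, 4.54 and 6.44 CPM with the empty vector and at 6.91, 9.86 and 10.97 CPM with P16. The log2 fold change of Il6 was 0.40 (SE 0.34, adjusted p = 0.947 in edgeR), and with the block over 12 libraries 0.61 (SE 0.16, unadjusted p = 0.00251, adjusted p = 0.289). The shared numbers 2 and 5 gave Il6 ratios of 1.52 and 1.70. Il6 was the 1 member of 9 with an unadjusted p under 0.05 in the block fits, beside 11.4% of genes with 12 libraries and 7.98% with the 2 groups. The other 8 members had log2 fold changes between -0.44 (Lifr) and 0.29 (Lif). None passed the adjusted threshold with edgeR or DESeq2, as no gene of the table did with edgeR (0% of genes).

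P16 overexpression in Cd146+ cells set Lif, Socs3 and Il6st above the empty vector at an unadjusted p under 0.05, which did not hold with the replicate block. Lif was at 32.5, 12.7 and 36.9 CPM with the empty vector and at 106.3, 105.8 and 42.5 CPM with P16, without overlap. The log2 fold change of Lif was 1.64 (SE 0.51, unadjusted p = 0.0177, adjusted p = 0.986 in edgeR). Socs3 was at 26.4, 38.3 and 43.0 CPM with the empty vector and at 126.3, 59.4 and 44.5 CPM with P16, a log2 fold change of 1.11 (unadjusted p = 0.0428). Il6st was at 636.3, 428.7 and 697.3 CPM with the empty vector and at 1349, 1209 and 656.8 CPM with P16, a log2 fold change of 0.88 (unadjusted p = 0.0356).

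Only number 5 was shared by both groups. In it the ratios of P16 to empty vector were 1.15 for Lif, 1.035 for Socs3 and 0.942 for Il6st. With the block over 12 libraries the log2 fold changes were 0.28, 0.07 and 0.01, with no unadjusted p under 0.05 among the 9 members, beside 1.78% of all genes. Without the block 3 of 9 members had an unadjusted p under 0.05, beside 3.53% of 14860 genes, all 3 higher, beside 1.55% higher among all genes, and 3 had groups without overlap (Lif, Socs3 and Il11), beside 8.56%. None passed the adjusted threshold in edgeR or DESeq2 (0% of genes in edgeR). Empty vector number 4 had the lowest Col1a1 level of the 24 libraries (454.2 CPM, against 4309 CPM in the next), and its Il6 level of 3.66 CPM was close to the 4.54 CPM of Cd31+ empty vector number 2. Without it the log2 fold change of Lif was 1.30 (unadjusted p = 0.0269) and that of Socs3 1.16 (unadjusted p = 0.0731). The difference of the P16 effect between the populations was 1.12 for Il6st (unadjusted p = 0.0329, adjusted p = 0.989 in edgeR), the only one of 9 members under 0.05, beside 3.82% of genes. With the block it was 0.26, and no member had an unadjusted p under 0.05, beside 2.51%. With a term for Y-linked transcripts, 1 member, Lif, kept an unadjusted p under 0.05 in Cd146+ overexpression, beside 3.61%.

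**Figure D4:**
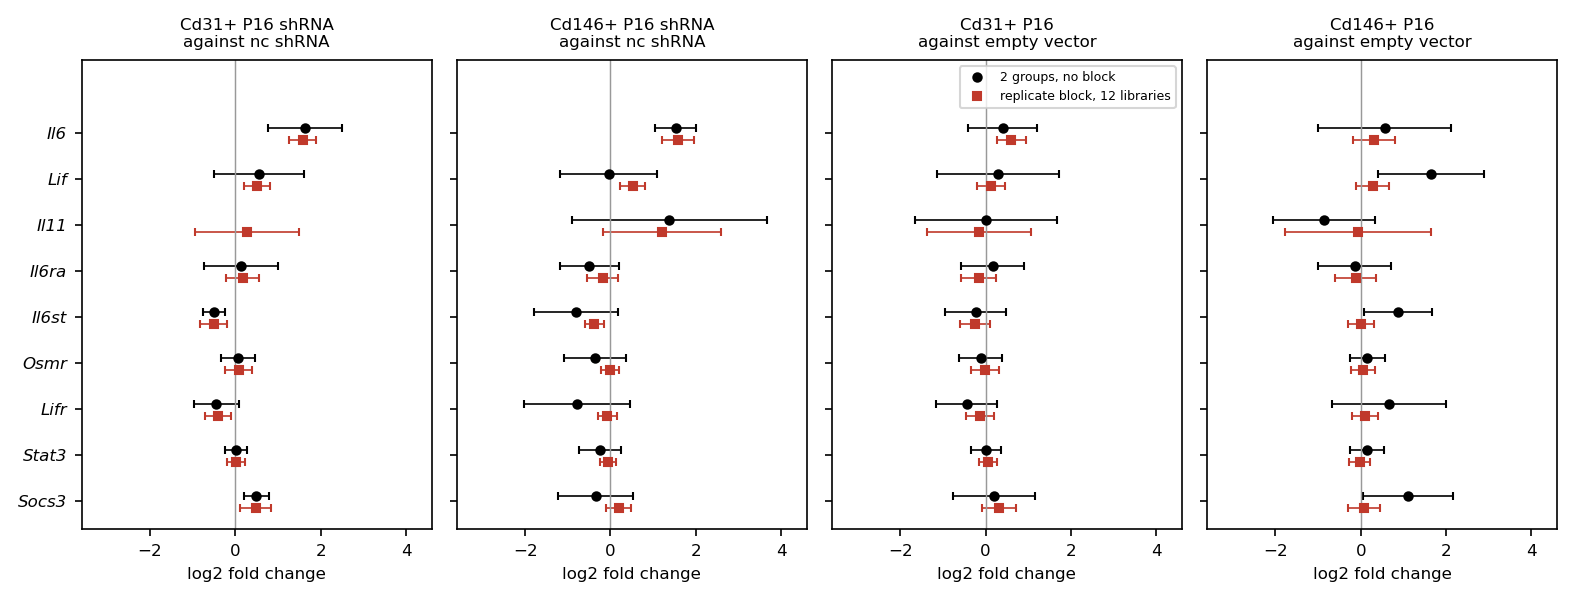
Log2 fold change of the 9 genes in the 4 construct comparisons, with 95% intervals, from the fit over 2 groups (black circles) and from the fit over the 12 libraries of the population with the replicate number as a block (red squares). Il6 lies at 1.63 and 1.52 under silencing, and the Lif value of 1.64 with P16 in Cd146+ cells is 0.28 with the block. Il11 was not tested in the first comparison without the block.

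The populations were compared over their 12 control libraries, 6 each, with the type of control construct as a covariate. In this comparison Stat3, Il6ra, Il6 and Socs3 had higher levels in Cd146+ cells at an unadjusted p under 0.05. Stat3 had a lowest, median and highest level of 215.8, 251.2 and 277.5 CPM in Cd31+ cells and of 270.9, 310.6 and 346.0 CPM in Cd146+ cells. Its log2 fold change was 0.31 (SE 0.10, unadjusted p = 0.00794, adjusted p = 0.17 in edgeR), and the exact two-sided permutation p was 0.00649. The ranges overlapped only between the lowest Cd146+ and the highest Cd31+ libraries.

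Il6ra, the binding chain, stood at 8.19, 9.66 and 17.96 CPM (lowest, median and highest) in Cd31+ cells and at 10.9, 16.5 and 24.8 CPM in Cd146+ cells, a log2 fold change of 0.69 (adjusted p = 0.2 in edgeR). Il6 stood at 4.54, 8.20 and 12.9 CPM in Cd31+ cells and at 3.66, 20.2 and 22.1 CPM in Cd146+ cells, a log2 fold change of 1.01 (adjusted p = 0.218). The lowest Il6 value of the Cd146+ controls was empty vector number 4. Socs3 stood at 20.7, 27.7 and 47.4 CPM in Cd31+ cells and at 26.4, 42.1 and 93.0 CPM in Cd146+ cells, a log2 fold change of 0.70 (adjusted p = 0.248). The exact two-sided permutation p was 0.0238 for Il6ra, 0.0866 for Il6 and 0.0411 for Socs3. Il6 thus did not pass 0.05 in the permutation test. The 4 members with an unadjusted p under 0.05 stood beside 17.7% of 15224 genes, or 8.51% for genes higher in Cd146+ cells, and none passed the adjusted threshold in edgeR (0% of genes), while 1, Stat3, did in DESeq2's Wald test, beside 4.28%. No member had populations without overlap, beside 1.73% of genes. Among libraries with Y-linked transcripts (3 Cd146+ and 5 Cd31+) the log2 difference was 1.08 for Il6 and 0.35 for Stat3, and among those without (3 and 1) 0.84 and 0.27.

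Beyond the members, 65 genes of the pathway were followed in 6 lists: other cytokines and receptors of the family, Janus kinases and brakes, receptor shedding, Il6 induction, Il6 mRNA stability and STAT3 targets. In Cd31+ silencing 57 were tested, and 1 passed the adjusted threshold without the block, beside 1.3% of all genes. It was Adam10, a protease that sheds Il6ra. Adam10 was at 418.6, 490.7 and 397.8 CPM with nc shRNA and at 127.2, 129.8 and 121.9 CPM with P16 shRNA. It fell by 1.77 on the log2 scale (SE 0.11, adjusted p = 0.00444 in edgeR). Without P16 shRNA number 1, 2 or 3 the adjusted p of Adam10 was 0.071, 0.0585 and 0.0639, with log2 fold changes between -1.80 and -1.75. The other genes of the 6 in the shedding list did not fall with Adam10 as a set. Rhbdf2 had a log2 fold change of 0.38 (unadjusted p = 0.0234, adjusted p = 0.181 in edgeR) and Adam17 of 0.16 (adjusted p = 0.418). The median over the 6 was -0.11.

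In Cd146+ cells Adam10 was at 360.1, 455.7 and 236.5 CPM with nc shRNA and at 141.3, 103.8 and 84.8 CPM with P16 shRNA. The groups did not overlap, and the log2 fold change was -1.67 (SE 0.31, adjusted p = 0.382 in edgeR), and with the block over 12 libraries -1.41 (adjusted p = 0.00167). With the block over the 2 groups no gene of the table, Adam10 included, passed the adjusted threshold. With P16 overexpression Adam10 had no unadjusted p under 0.05 in either population.

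With the block over the 2 groups, 13 pathway genes rose and 8 fell in Cd31+ silencing, beside 18.8% of all genes called. Among the Il6-inducing genes, Tlr4, the receptor for bacterial lipopolysaccharide, had a log2 fold change of -0.73 (adjusted p = 0.0799 in edgeR, 0.0072 with the block), and Irak1, a kinase that acts after it, of -0.57 (0.0831 and 0.00398). Cebpd, a C/EBP factor, had a log2 fold change of 0.61 (0.121 and 0.00359). Among the kinases and brakes, Jak1, the kinase bound to gp130, had a log2 fold change of -0.42 (0.101 and 0.012). Among STAT3 targets, Bcl2l1, a survival gene, had a log2 fold change of -0.84 (0.0834 and 0.000644) and Il4ra, the interleukin-4 receptor gene, of 0.90 (0.167 and 0.0048). STAT3 target genes, of which Cebpd is also one, stood on both sides of 0 but mostly above it, with a median of 0.41 over the 16 tested. Without the block 4 were higher and 1 lower at an unadjusted p under 0.05 in edgeR, beside 19.8% of all genes. With the block over the 2 groups 8 were higher and 2 lower at the adjusted threshold, beside the 18.8%.

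In Cd146+ silencing no pathway gene of 58 passed the adjusted threshold in edgeR without the block. With the block over 12 libraries 4 rose and 6 fell at that threshold, beside 8.33% of all genes. With the block over the 2 groups none of the 58 passed it, as no gene of the table did. Socs1, a brake on Janus kinases, had a log2 fold change of 1.47 (adjusted p = 0.382, and 0.0469 with the block over 12 libraries) and Bcl2l1 of -0.71 (0.382 and 0.00695). Tlr4 and Irak1 were again lower, with log2 fold changes of -0.68 and -0.80 without the block (adjusted p = 0.408 and 0.422 in edgeR). The adjusted p from the separate fit with the block over 12 libraries was 0.0373 and 0.012. The median over the 17 STAT3 target genes tested was -0.02 in Cd146+ silencing without the block. Of them, 1 was higher and 1 lower at an unadjusted p under 0.05 in edgeR, beside 11.6% of all genes. With the block over 12 libraries 2 were higher and 2 lower at the adjusted threshold, beside 8.33% of all genes. Under overexpression, 2 of 55 pathway genes in Cd31+ cells (Cebpd and Serpina3n) and 2 of 58 in Cd146+ cells (Cebpb and Cish) had an unadjusted p under 0.05, shares near the 3.73% and 3.53% of all genes. Between the control libraries of the populations, of 57 pathway genes tested 6 were higher and 7 lower in Cd146+ cells at an unadjusted p under 0.05, beside 17.7% of all genes, with Cebpd (log2 fold change 0.91) and Il11ra1, the interleukin-11 receptor gene (0.64), among the higher ones and the RNA-binding factors Rc3h1 (-0.42) and Rc3h2 (-0.36) among the lower ones.

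Over the 24 libraries, the protein-coding genes with levels most like those of Il6 were Ugp2 (Spearman rho 0.889, Pearson r 0.867), Gla (0.864 and 0.849) and Tnfaip6 (0.837 and 0.849), out of 12164 genes searched. For Lif they were Csrnp1 (0.944 and 0.932), Cyp2d22 (0.915 and 0.835) and C1s1 (0.913 and 0.893). For Il11 they were Lpin3 (0.788), Nox4 (0.783) and Ankrd6 (0.782), on at most 50 reads per library. Without the 2 libraries farthest from the median, r was 0.870, 0.816 and 0.806 for Il6 and 0.928, 0.879 and 0.903 for Lif. These are descriptions of libraries that share constructs, populations and replicate numbers.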

How the data were processed

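The authors deposited raw read counts for 56748 genes in 24 libraries, and FPKM values for the same genes and libraries, normalized by the authors per gene length and library. The submitters' processing notes name fastp and the build mm9, but the gene coordinates of the deposited table differ from GRCm38, and their build is not settled, so none are printed. The aligner is not given in the sources used here, nor is it stated whether the libraries were stranded. The deposited fold changes, p-values and adjusted p-values were not used.

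Groups and replicate numbers came from the sample titles. Counts were analysed in R 4.3.3 with edgeR 4.0.16 (filterByExpr, TMM, robust quasi-likelihood test, two-sided, Benjamini-Hochberg over all genes tested) on the libraries compared, at 0.05. Standard errors are the log2 fold change divided by the root of F. Levels are TMM CPM over 24 libraries, 15409767 to 26470392 reads each, and a count of 3 was the floor. Within a population, libraries with the same number correlated after group means were taken out (median r 0.621 over 13 pairs in Cd31+ and 0.705 over 10 pairs in Cd146+ cells, lowest 0.368 and 0.324), so the numbers from the titles were taken to pair them, and not across populations (lowest -0.06). Alternatives were other filters, DESeq2 1.42.0, the block, a sex-linked term and leaving out libraries. Fits without a block were tested on simulated data, with the same spread between libraries set for all genes and no effect of the replicate number. That test does not cover the block fits or the spread of these libraries. No 2 libraries held identical values (highest r 0.995).

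The 9 members and the lists were chosen with earlier results of these data known. Named are the members, Cdkn2a, pathway genes with an adjusted p under 0.05 or up to 3 per list and comparison with the smallest unadjusted p under 0.05, the 3 genes closest to each cytokine and the markers that bear on cell type. A gene that this rule names is not reported here. Promoters are from RefSeq. The first 5 motifs were searched together. A second C/EBP pattern was added after the first had matched no member and the Il6 sequence had been read.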

Additional observations from a re-analysis of the deposited data

Results flagged for a closer look

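Among the 6 control libraries of each population, the gap of 1 library to the others exceeded Dixon's 95% limit for 2 of 18 gene and population groups examined, and chance gives about 1 in 20. Il6ra was at 17.96 CPM in Cd31+ nc shRNA replicate 3, above the 8.19 to 10.1 CPM of the other Cd31+ controls. Socs3 was at 47.4 CPM in Cd31+ empty vector replicate 1, above the 20.7 to 30.3 CPM of the others.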

How the results depend on the processing

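No member passed the adjusted threshold in any comparison as first fitted, and the counts depended on the replicate block and the tool. In Cd31+ silencing 3 members passed with all genes of at least 1 count, with DESeq2's Wald test and with the replicate block over 12 libraries, and 4 with the block over the 2 groups. In Cd146+ silencing 1 passed with all genes of at least 1 count and with DESeq2's Wald test, and 2 with the block over 12 libraries. Between the control populations 1 passed with DESeq2's Wald test. At an unadjusted p under 0.05, Cd31+ silencing had 3 members, 1 with the 12 libraries fitted together and 5 with either block. Cd31+ overexpression had 0, and 1 with either block. Cd146+ silencing had 1, 2 with all genes of at least 1 count or DESeq2's Wald test, and 3 with either block or, chosen after seeing the data, without number 3. Cd146+ overexpression had 3, 0 with the block and 1 with the sex-linked term. The control populations had 4, 6 with the replicate block across populations, 0 with empty vector libraries only, and 2 with libraries with Y-linked transcripts only or without Cd146+ empty vector 4 and nc shRNA 3, both chosen after seeing the data. The difference of the silencing effect had 0, and 1 without number 3 of the Cd146+ cells; that of the P16 effect had 1, and 0 with the block. Leaving out 1 library at a time gave 3 to 4 members in Cd31+ silencing, 0 to 1 in Cd31+ overexpression, 1 to 4 in Cd146+ silencing, 0 to 3 in Cd146+ overexpression, 3 to 4 between the populations, and 0 to 1 and 0 to 3 for the differences, and none with an adjusted p under 0.05. Shares over all genes are not given for these fits, for the filter of at least 1 count, or for the alternative fits of the control populations other than DESeq2's. Those counts therefore cannot be set against the table as a whole and say nothing particular to the members.

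Lif in Cd146+ silencing changed sign, to 0.52 and 0.59 with the replicate block over 12 libraries and 2 groups and 0.40 with the sex-linked term, and lay between -0.47 and 0.33 when 1 library was left out. Lif between the control populations was -0.16 with empty vector libraries only. With the block the difference of the effect on Il6 was 0.0093 for silencing and -0.30 for P16, and -0.37 to 0.17 and -0.30 to 0.49 with 1 library left out. That of Cebpb for P16 was -0.0012 with the block. Over all members, 65 of 983 refitted values changed sign, none of them in the 12 results with an unadjusted p under 0.05. The cause of these changes was not tested. A block across populations assumes a pairing that the correlations did not bear out. No block over 2 groups was possible for Cd146+ overexpression, because only number 5 is shared.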
